A study of Mus musculus with 6 samples.

Results

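The circadian clock of the mouse ovary was followed through 10 genes, Arntl, Clock, Npas2, Per1, Per2, Per3, Cry1, Nr1d1, Nr1d2 and Dbp, taken by symbol from tables of 46078 genes. The members were chosen by name, each matched a single row, and all 10 passed the filter on low values, an RPKM (reads scaled by gene length and library depth) of 1 or more in 3 or more of the 6 libraries. Whole ovaries of C57BL/6 mice of 8 to 9 weeks were sequenced in 3 libraries of the cyclophosphamide treatment, labelled CTX, and 3 control libraries. Cyclophosphamide is an alkylating chemotherapy drug. The dose and route, the interval to collection, the hour of collection and the stage of the estrous cycle are not stated in the labels, and no label says whether each library is a separate animal. P-values therefore reflect only how these samples vary, which may be technical variation.

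The clock is a feedback loop of transcription that runs in nearly every cell. ARNTL (also called BMAL1) pairs with CLOCK or NPAS2 and binds E-boxes in the genes of the PER and CRY proteins, which return to the nucleus and block that pair. The same pair drives Nr1d1 and Nr1d2, whose REV-ERB proteins repress Arntl through ROR elements, and Dbp, whose protein activates genes that carry D-boxes. In peripheral tissues of the mouse the arms peak at different times of day, with Arntl and Npas2 high around the end of the night and Nr1d1, Dbp and then the Per genes high later. In the ovary the clock runs in follicles and luteal cells and has been tied to the timing of ovulation and to steroid synthesis.

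Promoter windows of 300 bases (250 before to 50 after an annotated start, from RefSeq on GRCm38.p6) were available for 9 of the 10 members, all but Per2, and numbered 13. The windows printed here carry the letters of the elements that join the arms of the loop, on the gene's strand from 5′ to 3′, with every match in capitals. Both strands were searched for the E-box CACGTG, the D-box TTANGTAA and a long ROR element AGTAGGTNA. A looser short form, TNGGTCA, was searched too and overlaps the long form where the last letters match. N is any letter, so a match to the short form need not be a ROR element.
Arntl, chr7:113207261-113207560, plus strand: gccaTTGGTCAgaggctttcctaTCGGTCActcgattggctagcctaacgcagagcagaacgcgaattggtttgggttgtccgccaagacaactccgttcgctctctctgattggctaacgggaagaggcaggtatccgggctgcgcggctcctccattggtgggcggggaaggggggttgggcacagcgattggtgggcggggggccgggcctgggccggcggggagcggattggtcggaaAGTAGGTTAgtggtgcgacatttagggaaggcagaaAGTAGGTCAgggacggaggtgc
Per3, chr4:151044616-151044915, minus strand: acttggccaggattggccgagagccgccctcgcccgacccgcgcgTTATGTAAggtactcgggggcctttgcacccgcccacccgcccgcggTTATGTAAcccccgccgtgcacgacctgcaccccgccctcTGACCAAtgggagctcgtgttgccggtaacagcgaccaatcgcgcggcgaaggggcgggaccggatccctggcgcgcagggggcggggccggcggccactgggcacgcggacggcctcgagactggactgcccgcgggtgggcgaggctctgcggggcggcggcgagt
Cry1, chr10:85185005-85185304, minus strand: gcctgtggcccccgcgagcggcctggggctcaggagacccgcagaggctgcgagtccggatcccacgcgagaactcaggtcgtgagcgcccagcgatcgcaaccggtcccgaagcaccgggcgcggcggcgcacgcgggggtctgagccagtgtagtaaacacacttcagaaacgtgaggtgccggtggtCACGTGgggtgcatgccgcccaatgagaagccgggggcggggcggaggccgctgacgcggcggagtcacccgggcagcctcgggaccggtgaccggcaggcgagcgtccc
Per1, chr11:69098699-69098998, plus strand: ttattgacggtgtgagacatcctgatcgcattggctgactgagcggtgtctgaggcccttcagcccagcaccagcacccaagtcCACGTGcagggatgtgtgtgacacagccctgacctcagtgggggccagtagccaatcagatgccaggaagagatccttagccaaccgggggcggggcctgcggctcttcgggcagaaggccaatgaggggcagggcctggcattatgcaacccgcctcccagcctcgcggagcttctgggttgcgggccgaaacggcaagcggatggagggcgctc

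The Arntl window held 2 long ROR elements, AGTAGGTTA and AGTAGGTCA, and further matches to the short form alone, TTGGTCA and TCGGTCA. The long form was present in 194 of 32817 promoter windows (0.591%). It was chosen after matches of a still longer form, which fewer windows held, had been seen. Per3 held 2 copies of the D-box TTATGTAA, a motif present in 2.32% of windows. It also held a match to the short form on the opposite strand, printed as TGACCAA, and 11.0% of windows held that form. Cry1 and Per1 each held an E-box, which 7.15% of windows had. None of these letters occurred in the windows of Dbp, Nr1d1, Nr1d2, Npas2 or Clock, or in a second window of Per1. Elements with other letters, or outside the windows, were not searched, so these genes cannot be said to lack them.

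The depth behind the values, estimated from the steps between low RPKM values, was about 17000000 to 22300000 reads in CTX libraries and 15900000 to 16800000 in control libraries. Defining genes of the ovary were present throughout, with Zp3 of the oocyte coat at 20.2 to 63.4 RPKM, Foxl2 of granulosa cells at 78.9 to 94.0 and Cyp11a1 of steroid synthesis at 782 to 2801. Luteal content set the libraries apart, since the summed RPKM of 8 luteal markers was 9668, 3139 and 3010 in CTX 1, 2 and 3 and 7551, 8150 and 4091 in controls 1, 2 and 3. CTX 1 thus stood with controls 1 and 2, and control 3 with CTX 2 and 3, across the labels. Of the luteal markers 8 of 8 had negative log2 differences, from -1.69 to -0.08, where 51.2% of all genes were negative. The markers rose and fell together over the libraries, so they are not 8 separate observations. In whole tissue, fewer cells of a type and less RNA per cell cannot be told apart.

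Of the 10 clock genes, Dbp, Nr1d1, Nr1d2 and Per3 had lower levels in CTX by log2 differences of 0.55 to 1.04 in size, Per1, Per2, Clock and Npas2 lay lower by less, and Arntl and Cry1 lay higher. A negative difference in 8 of 10 members compares with 51.2% of all genes. No member passed the test across 14535 genes. Adjusted p in limma with Benjamini-Hochberg adjustment was 0.959 for Nr1d2 and 1.00 for the other 9 members, and 0 genes passed in all (0% of those tested). At an unadjusted p under 0.05 there were 4 members lower and 0 higher, where the same held for 2.29% of all genes lower and 1.16% higher. Without control 3 the lower members were 2, where 3.14% of all genes were lower, and without CTX 1 they were 3, where 7.05% were. The highest CTX library lay below the lowest control library in 4 members (Dbp, Nr1d2, Per3 and Per1), against 5.5% of all genes, and above them in 0, against 3.32%. Lower members without overlap were 7 without control 3, against 12.7% of all genes, and 5 without CTX 1, against 17% of all genes. The median log2 difference over the members was -0.26, beside -0.01 over all genes tested.

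**Figure D1:**
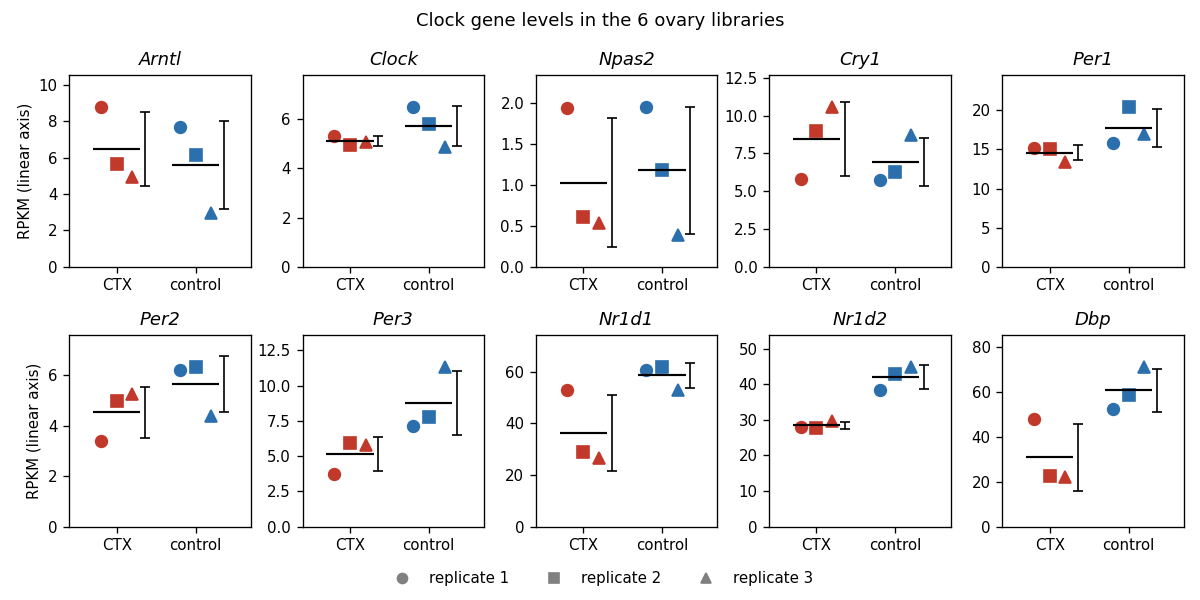
RPKM (linear axes) of each clock gene in the 3 CTX libraries (red, left) and 3 control libraries (blue, right). Marker shapes give the replicate number, horizontal lines the group mean and bars the SD. Nr1d2 sits at 27.7 to 29.6 in CTX and at 38.3 to 44.9 in control, while Npas2, Arntl and Cry1 overlap widely.

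Levels per kilobase spanned a wide range. Averaged over the 6 libraries (± SD), Nr1d1 had 47.4 ± 15.6 RPKM, Dbp 45.8 ± 19.8 and Nr1d2 35.2 ± 7.79, an order in which neighbours did not differ beyond their spread. Per1 followed with 16.2 ± 2.40, apart from both neighbours. Cry1 (7.69 ± 2.02), Per3 (6.95 ± 2.57), Arntl (6.03 ± 2.06), Clock (5.42 ± 0.627) and Per2 (5.10 ± 1.12) overlapped each other. Npas2 was the lowest at 1.10 ± 0.705. About 31 to 167 reads stood behind each Npas2 value, against about 306 to 4082 behind a value of any other member.

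The output gene Dbp encodes a PAR bZIP transcription factor that passes the rhythm on to metabolic genes. It lies on chromosome 7 (45705088 to 45710203, plus strand, mm10). Dbp had 48.05, 22.6 and 22.0 RPKM in CTX 1, 2 and 3, against 52.55, 58.4 and 71.3 in controls 1, 2 and 3. CTX 2 and 3 were lowest by far and CTX 1 lay just under the lowest control. The means were 30.9 ± 14.9 in CTX and 60.8 ± 9.59 in control (SD, n = 3 each), a ratio of 0.508. The fitted log2 difference was -1.04 ± 0.32 (SE), with a 95% confidence interval of -1.80 to -0.28. Exons of Sphk2, a sphingosine kinase gene on the opposite strand, cover 539 of the 2993 exonic bases of Dbp (18.0%), and strand use in counting is not stated. Sphk2 itself had 15.4, 13.2 and 13.0 RPKM in CTX and 11.7, 13.3 and 11.2 in control.

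The REV-ERB genes Nr1d1 and Nr1d2 encode heme-binding nuclear receptors that repress Arntl. Nr1d2 (chromosome 14, 18204054 to 18239127, minus strand) had 28.0, 27.7 and 29.6 RPKM in CTX 1, 2 and 3, against 38.3, 42.9 and 44.9 in controls 1, 2 and 3. The CTX libraries were nearly level and all lay well under the controls, whatever their luteal content. Its means were 28.4 ± 1.04 in CTX and 42.05 ± 3.40 in control, a log2 difference of -0.55 ± 0.11 with a 95% confidence interval of -0.81 to -0.29. Nr1d2 ranked 27 of 14535 genes by limma p.

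Nr1d1 (chromosome 11, 98767932 to 98775333, minus strand) had 53.0, 28.9 and 26.7 RPKM in CTX 1, 2 and 3, against 60.8, 62.0 and 52.8 in controls 1, 2 and 3. CTX 2 and 3 had about the same low level, whereas CTX 1 lay within the range of the controls, so the groups overlapped. The log2 difference was -0.74 ± 0.26, with a 95% confidence interval of -1.38 to -0.10. Thra, a thyroid hormone receptor gene on the opposite strand, shares 263 of the 3077 exonic bases of Nr1d1 (8.5%). It had 20.2, 42.3 and 41.05 RPKM in CTX and 29.2, 23.8 and 38.5 in control, high where luteal markers were low.

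Among the Period genes, which encode the repressors of the loop, Per3 differed most. Per3 (chromosome 4, 151003652 to 151044665, minus strand) had 3.72, 5.92 and 5.76 RPKM in CTX 1, 2 and 3, against 7.16, 7.78 and 11.35 in controls 1, 2 and 3. The groups did not overlap, and control 3 was the highest library. The means were 5.13 ± 1.23 in CTX and 8.76 ± 2.26 in control, a log2 difference of -0.67 ± 0.23 with a 95% confidence interval of -1.21 to -0.12.

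Per1 (chromosome 11, 69095217 to 69109960, plus strand), which also responds quickly to glucocorticoids and other signals, had 15.2, 15.1 and 13.4 RPKM in CTX 1, 2 and 3, against 15.8, 20.45 and 17.0 in controls 1, 2 and 3. The groups did not overlap, but CTX 1 and control 1 lay close together. Its log2 difference was -0.26 ± 0.13, with a 95% confidence interval of -0.58 to 0.06. Per2 (chromosome 1, 91415982 to 91459324, minus strand) had 3.39, 4.97 and 5.27 in CTX and 6.23, 6.35 and 4.39 in control. Control 3 lay below CTX 2 and 3, and the log2 difference was -0.27 ± 0.20 with a 95% confidence interval of -0.75 to 0.22.

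Cry1, encoding a cryptochrome that acts with the PER proteins in repression, lies on chromosome 10 (85131700 to 85185064, minus strand). It had 5.80, 8.99 and 10.6 RPKM in CTX 1, 2 and 3, against 5.77, 6.27 and 8.73 in controls 1, 2 and 3. Low values were those of CTX 1 and controls 1 and 2, the libraries with high luteal markers. The log2 difference was 0.24 ± 0.24, with a 95% confidence interval of -0.35 to 0.82.

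The positive arm did not separate the groups. Arntl (chromosome 7, 113207465 to 113314126, plus strand) had 8.81, 5.66 and 4.96 RPKM in CTX 1, 2 and 3, against 7.68, 6.14 and 2.95 in controls 1, 2 and 3. The lowest value was that of control 3 and the highest that of CTX 1. The log2 difference was 0.22 ± 0.34 with a 95% confidence interval of -0.59 to 1.04, and it turned to -0.11 without control 3.

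Npas2 (chromosome 1, 39193731 to 39363236, plus strand), which can stand in for CLOCK, had 1.93, 0.61 and 0.53 RPKM in CTX 1, 2 and 3, against 1.95, 1.18 and 0.39 in controls 1, 2 and 3. It was low in control 3 and CTX 2 and 3 alike, with a log2 difference of -0.10 ± 0.37. Clock (chromosome 5, 76209868 to 76304792, minus strand), whose mRNA is nearly constant over the day in most tissues, varied least, with 5.33, 4.94 and 5.07 in CTX and 6.50, 5.80 and 4.88 in control. Its log2 difference was -0.13 ± 0.13.

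**Figure D2:**
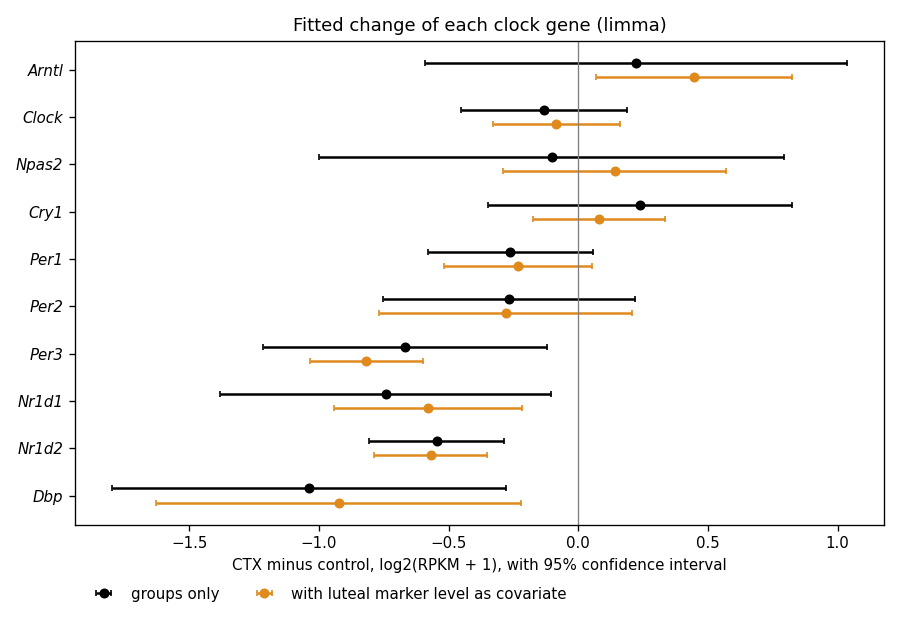
Fitted difference of each clock gene, CTX minus control on the log2(RPKM + 1) scale (horizontal axis), with 95% confidence intervals from limma, for groups alone (black) and with the mean luteal marker level as a covariate (orange). The intervals of Dbp, Nr1d1, Nr1d2 and Per3 lie below 0 in both fits, and no member passed adjustment over all genes in either.

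The arms were set side by side within each library, since the ratio of a gene of the positive arm to a gene it drives depends little on the scaling of a library. The log2 ratio of Arntl to Dbp was -2.32, -1.82 and -1.95 in CTX 1, 2 and 3, against -2.63, -3.06 and -4.19 in controls 1, 2 and 3. The ratio of Arntl to Nr1d1 was -2.46, -2.17 and -2.22 in CTX, against -2.83, -3.14 and -3.77 in control. In both ratios every CTX library lay above every control library, and the spread among controls was wider than the gap between the groups. Arntl over Per3 was 1.06, -0.06 and -0.18 in CTX and 0.09, -0.30 and -1.65 in control, and overlapped. The ratios of Arntl to Nr1d2, Per1 and Per2, formed in the same way, also overlapped between the groups. All of these ratios were formed after the values of the genes were seen. They are given without a test and without the share of all genes that would separate so.

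**Figure D3:**
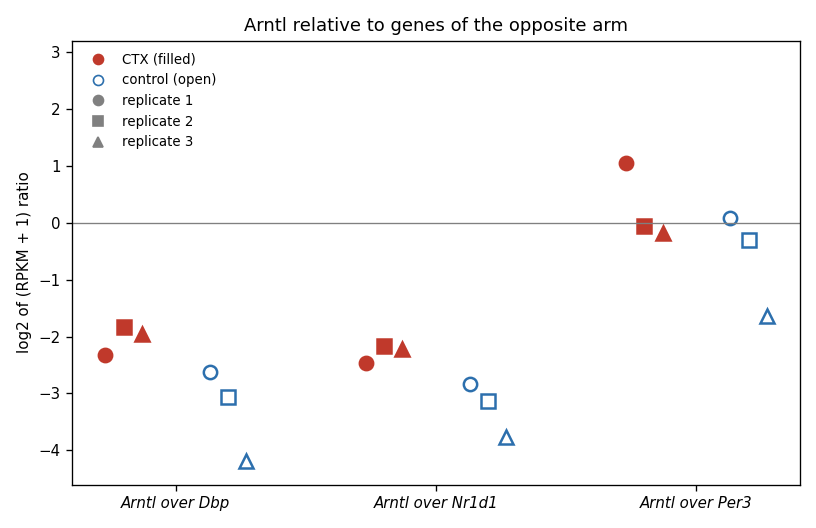
Log2 ratio of Arntl to Dbp, Nr1d1 and Per3, from RPKM + 1, in each library. Filled red markers are CTX and open blue markers are control. CTX libraries lie above control libraries for Dbp and Nr1d1, and control 3 has the lowest ratio in all 3 sets.

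An hour of collection would be needed to read these ratios as a phase of the clock, and the labels give none. Arntl, Npas2, Cry1, Clock and Nr1d1 divided without overlap between libraries rich and poor in luteal markers and overlapped between CTX and control. For Nr1d1 the division was narrow, with 53.0 RPKM in CTX 1 and 52.8 in control 3. The share of all genes that divided by luteal content was not counted. Npas2 reached an RPKM of 1 only in the rich libraries, so it passed the filter through them. Dbp, Nr1d2, Per3 and Per1 divided between CTX and control, and Dbp and Nr1d1 were lowest in CTX 2 and 3. A difference in the hour of collection was not tested.

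Luteal level moved with several members. Between CTX 1 and controls 1 and 2, the libraries rich in luteal markers, CTX 1 had the lower value of Nr1d2, Per3, Per2, Per1, Nr1d1, Clock and Dbp and the higher value of Arntl. Between CTX 2 and 3 and control 3, the libraries poor in them, CTX 2 and 3 had lower values of Dbp, Nr1d1, Nr1d2, Per3 and Per1 and higher values of Arntl, Npas2, Per2, Clock and Cry1. The 5 genes Dbp, Nr1d1, Nr1d2, Per3 and Per1 were lower in CTX in both comparisons, which 19.4% of all genes were, and 1, Arntl, was higher in both, which 10.5% were. Per2 and Clock turned. Each comparison has 1 library on one side and 2 on the other, was formed after the luteal levels were seen and has no test.

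With the mean log2 level of the luteal markers as a covariate, the log2 difference was -0.82 ± 0.09 for Per3, -0.57 ± 0.09 for Nr1d2, -0.58 ± 0.15 for Nr1d1, -0.92 ± 0.29 for Dbp and 0.45 ± 0.16 for Arntl. The adjusted p-values in limma were 0.12, 0.146, 0.256, 0.325 and 0.354. At an unadjusted p under 0.05 there were 4 members lower and 1 (Arntl) higher, where 8.18% of all genes were lower and 4.35% higher. The luteal levels form 2 separate clusters, so this fit leans on the contrast between them.

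**Figure D4:**
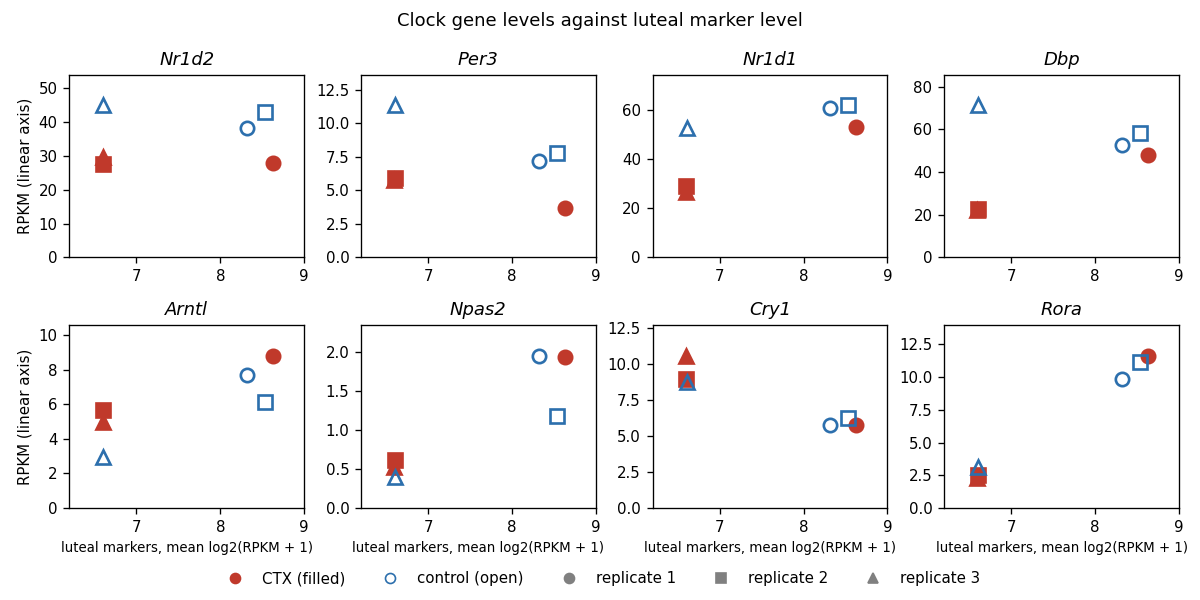
RPKM (linear axes) of 7 clock genes and Rora against the mean log2(RPKM + 1) of the luteal markers in each library, with CTX filled and control open. Rora, Npas2 and Cry1 follow the luteal level. Nr1d2 and Per3 are lower in CTX on both sides of the gap, as Dbp, Nr1d1, Per1 and 19.4% of all genes also were.

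Markers of other cells and of tissue handling were read beside the low Dbp and Nr1d1 of CTX 2 and 3. The summed RPKM of 5 endothelial markers was 105, 85.5 and 82.1 in CTX 1, 2 and 3, against 106, 114 and 104 in controls 1, 2 and 3, so CTX 2 and 3 were lowest there too, and 5 of 5 had negative log2 differences. Of these Tek, a receptor gene of endothelial cells, separated the groups, with 7.23, 6.39 and 6.62 RPKM in CTX and 9.22, 8.72 and 8.34 in control, a log2 difference of -0.33 ± 0.11. The 8 immediate early genes summed to 197.5, 117 and 111 in CTX and 130, 152 and 244.5 in control. Of the 7 tested 6 were negative, where 51.2% of all genes were, with a median log2 difference of only -0.05. Fos was positive at 0.78. Smooth muscle markers had 604, 755 and 696 in CTX and 425, 416 and 644 in control, with 4 of 4 positive. Adipocyte markers summed to 7.10, 180 and 167 in CTX and 8.50, 5.46 and 132.5 in control, with Cidec at 0 in controls 1 and 2 and Adipoq at 0 in control 2, and 6 of 6 were positive. Macrophage markers had 53.5, 47.4 and 46.1 in CTX and 61.45, 48.5 and 45.65 in control, with 2 of 4 negative. Among them Csf1r, a growth factor receptor gene of macrophages, separated the groups, with 7.54, 9.29 and 8.73 in CTX and 12.55, 10.9 and 12.2 in control, a log2 difference of -0.44 ± 0.12. Csf1r and Tek thus lay lower in every CTX library than in every control, as 5.5% of all genes did, and neither passed adjustment. Adgre1 (0.06) and Cd68 (0.09) of the macrophage list had positive log2 differences, and Mrc1 overlapped between the groups. Granulosa markers had 987, 3240 and 3209 in CTX and 1611, 1470 and 3508 in control, with 5 of 9 negative, and oocyte markers 98.4, 370 and 357 in CTX and 160, 137 and 324 in control, with 9 of 10 positive. Their part in the clock gene differences was not tested.

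Of 20 other genes of the clock and its outputs 18 were tested and 0 passed, with 0 at an unadjusted p under 0.05 in either direction. Of these 12 had negative and 6 positive log2 differences, where 51.2% of all genes were negative. The median was -0.12 and the range -0.63 to 0.21. The groups did not overlap in 1 of the 18, Csnk1e, lower in CTX, where 5.5% of all genes separated in that direction. Csnk1e encodes a kinase that marks PER proteins for turnover. It had 16.75, 16.2 and 16.1 RPKM in CTX and 19.0, 19.8 and 16.9 in control, a log2 difference of -0.17 ± 0.11.

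The largest log2 differences in that list were those of Rora (-0.63 ± 0.64), Bhlhe40 (-0.62 ± 0.41) and Tspan4 (-0.42 ± 0.31). Rora, encoding the receptor that activates Arntl through the ROR element, had 11.6, 2.52 and 2.31 RPKM in CTX 1, 2 and 3, against 9.87, 11.1 and 3.16 in controls 1, 2 and 3. Bhlhe40, encoding a repressor at E-boxes, had 29.85, 13.3 and 12.75 in CTX and 31.8, 36.3 and 16.9 in control. Tspan4, a tetraspanin gene with a rhythm in many mouse tissues, had 98.7, 47.3 and 44.2 in CTX and 77.5, 82.3 and 78.3 in control. Control 3 stood with CTX 2 and 3 for Rora and Bhlhe40 but with the other controls for Tspan4.

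The relatives of Dbp gave another pattern. Tef, another PAR bZIP gene, had 14.0, 22.45 and 23.3 RPKM in CTX and 20.25, 22.3 and 29.6 in control, and Hlf, the third of the family, had 0.87, 3.57 and 3.52 in CTX and 3.24, 2.41 and 4.49 in control. The low library was CTX 1 in both genes, whereas for Dbp CTX 2 and 3 were low. Ciart, an E-box target that represses the loop, had 1.73, 3.73 and 3.56 in CTX and 2.53, 2.79 and 4.50 in control. Usp2, a deubiquitinase gene with a strong rhythm in liver, had 1.19, 2.94 and 3.77 in CTX and 1.67, 2.07 and 2.80 in control.

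**Figure D5:**
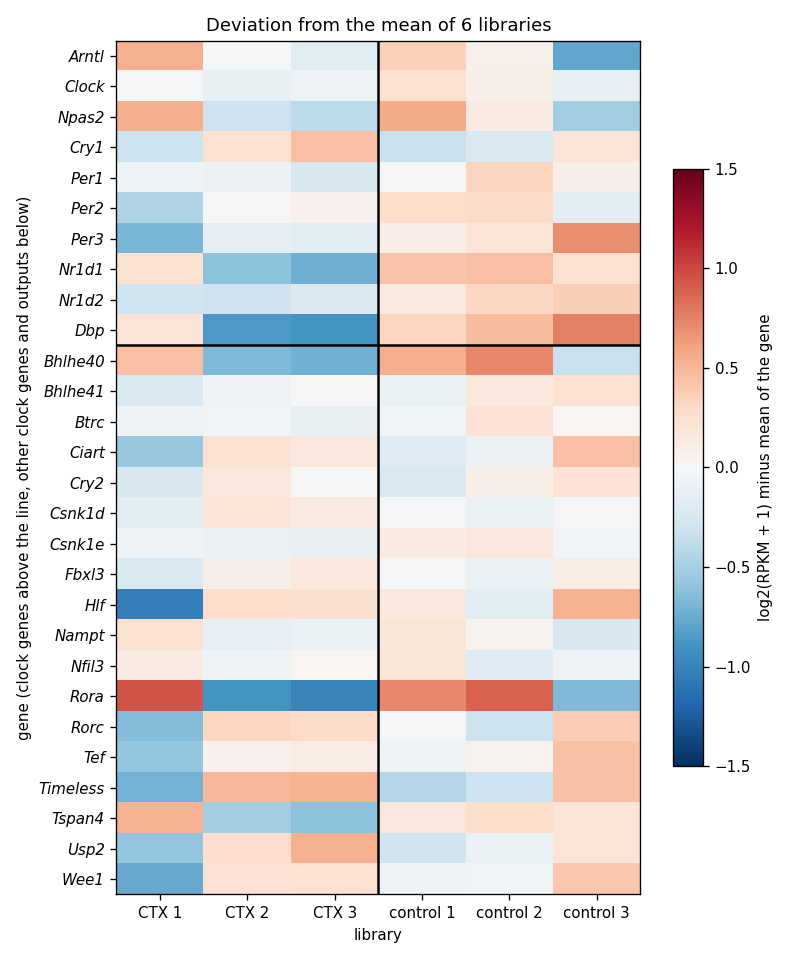
Deviation of each gene in each library from its mean over the 6 libraries, on the log2(RPKM + 1) scale (colour), for the 10 clock genes (above the line) and the 18 tested other genes of the clock and its outputs (below), with CTX libraries left and control libraries right. Dbp and Nr1d1 are low in CTX 2 and 3, and Rora and Bhlhe40 are high in CTX 1 and controls 1 and 2.

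Genes that carry body-wide cues to tissue clocks were read from a list of 11 that respond to glucocorticoids or temperature. Of these 10 were tested and 0 passed, with 0 at an unadjusted p under 0.05, 6 negative, 4 positive and a median log2 difference of -0.01. No gene separated the groups. The largest differences were those of Sgk1 (-0.86 ± 1.11), Fkbp5 (-0.57 ± 0.73) and Klf9 (-0.46 ± 0.27). Next in size were those of Klf15 (0.44 ± 0.28) and Tsc22d3 (0.42 ± 0.20), which were positive. Fkbp5, a co-chaperone gene induced by steroid hormones, had 256, 57.8 and 57.1 RPKM in CTX and 198, 222 and 63.0 in control, the division of luteal markers. Sgk1, a kinase gene induced by steroid hormones, had 241, 23.2 and 24.6 in CTX and 156, 194 and 28.3 in control. Klf9 encodes a zinc finger factor induced by glucocorticoids, and its lowest library was CTX 1, with 12.0, 20.9 and 23.7 in CTX and 31.8, 23.2 and 22.0 in control.

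Likeness over the 6 libraries was described by Pearson's r of log2(RPKM + 1) among the 14535 genes kept, as a description, since libraries share their cell content. The genes most like Dbp were Mapk13 (r = 0.989), Hao2 (0.986), Tm7sf3 (0.985), Shpk (0.982) and Chn1os3 (0.982). Hao2, a peroxisomal hydroxy acid oxidase gene, had 104, 45.1 and 47.9 RPKM in CTX 1, 2 and 3 and 123, 119 and 132 in controls 1, 2 and 3. Nr1d1 was the member nearest to Dbp, with r = 0.939 and rank 53 of 14534. The genes most like Arntl were Surf2 (r = 0.995), the macrophage gene Cd68 (0.981), Smarca1 (0.978), Fads3 (0.978) and C5ar1 (0.977), and Npas2 was the nearest member (0.896, rank 126). Surf2 had 16.9, 14.7 and 13.7 RPKM in CTX and 15.8, 15.05 and 12.0 in control.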

How the data were processed

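RNA of 6 whole ovary libraries was prepared with Trizol and the Illumina TruSeq RNA kit, per the labels' protocols. The authors deposited 1 value per gene and library, taken as RPKM. No header names the unit. Among genes of up to 1000 exonic bases (GENCODE M21 on GRCm38, the assembly of mm10), values of up to 15 reads came within 0.2 of whole reads for 97.6 to 98.1%, at a single step per library, which gave the depth. The submitters' processing notes name Bowtie 0.12.2 and mm10, and the labels state neither the read counter nor filters nor strand use. Reads behind a value were approximated as RPKM times exon length times depth.

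RPKM were transformed as log2(RPKM + 1), which understates the change of low genes. The 14535 genes that reached an RPKM of 1 in 3 or more libraries were fitted in limma 3.58.1 (R 4.3.3) with moderated variances and a mean-variance trend, CTX against control, and Benjamini-Hochberg adjustment over all of them at 0.05. Tests are two-sided. With 3 libraries a group the smallest exact permutation p is 0.1, so none is quoted. The fit was tested on simulated data. The members, lists, arms and tests were chosen with earlier results of these data known. Named genes were the 10 members, genes of the lists of other clock genes and of systemic cues whose groups did not overlap or with the 3 largest differences in their list, the 5 most like Dbp and Arntl, and genes overlapping a member. Tef, Hlf, Ciart, Usp2, Klf15, Tsc22d3, the single cell markers named and the levels of Surf2 and Hao2 were added after their values were seen.

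Approximate reads were compared between libraries in case one had been deposited again. The closest pair, CTX 2 and 3, had a mean chi-square per gene of 6.41, followed by controls 1 and 2 with 11.1. Sampling noise alone gives about 1, so no library was taken as deposited again and all were kept. The median for CTX 2 and 3 was 1.5, the lowest of all pairs. Whether these libraries came from separate animals was not tested. Same-numbered libraries had correlations of 0.40, -0.54 and 0.60 between their deviations from the group means. CTX 1 with control 2 had 0.61 and CTX 2 with control 3 had 0.60. The signs followed luteal content, so these correlations cannot show or exclude pairs. The replicate numbers were not taken as pairs. The alternatives were trimmed-mean scaling, quantile normalization, other filters and pseudocounts, no trend, the luteal level as a covariate, the replicate number as a block, and each library left out.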

Additional observations from a re-analysis of the deposited data

How the results depend on the processing

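The number of clock genes past the adjusted threshold was 0 in the main analysis and under all 15 alternatives. The smallest adjusted p of a member was 0.0657, for Dbp and Nr1d1 without CTX 1. Over all genes the count was 0 except with the luteal level as a covariate, with 2 calls (Coro2a and Inhbb, lower), and with single libraries left out, where it ranged from 0 to 5 (5 without CTX 1, 0 without any other). The cause was not tested. Dbp, Nr1d1, Nr1d2, Per3, Per1, Per2, Clock and Cry1 kept their sign under every alternative run. With libraries left out, the log2 difference ranged from -1.40 to -0.85 for Dbp, from -1.04 to -0.56 for Nr1d1, from -0.61 to -0.50 for Nr1d2 and from -0.78 to -0.49 for Per3. In the main fit Dbp, Nr1d1 and Per3 had -1.04, -0.74 and -0.67, and each moved by less than 1.5 times from that value. The extremes of the range differed from each other by over 1.5 times, or in sign, for every member but Nr1d2. The smaller differences moved more relative to their size. Per1 ranged from -0.34 to -0.16 (-0.16 without control 2). Per2 ranged from -0.41 (without control 3) to -0.11 (without CTX 1). Clock ranged from -0.22 (without control 3) to -0.05 (without control 1), and Cry1 from 0.08 (without CTX 3) to 0.46 (without CTX 1). Cry1 was also 0.13 without control 1 and 0.40 without control 3. Arntl ranged from -0.11 (without control 3) to 0.46 (without control 1) and was 0.01 without CTX 1, and Npas2 from -0.40 to 0.15, turning positive without CTX 2 (0.03), CTX 3 (0.07) or control 1 (0.15). Npas2 also turned with the luteal level as a covariate (0.14), and it was not tested at a mean RPKM of at least 5. Of 149 values of single members under an alternative 144 kept their sign and 5 turned.

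At an unadjusted p under 0.05 the count of lower members was 4 in the main analysis and 2 to 4 under the alternatives. It was 3 with trimmed-mean scaling (2.24% of all genes were lower), without CTX 1 (7.05%), CTX 2 (1.37%), CTX 3 (1.7%), control 1 (1.12%) or control 2 (1.58%), and 2 without control 3 (3.14%). The replicate block, for numbers not shown to be pairs, gave 0 calls over all genes and 0 among clock genes, with 456 genes at an unadjusted p under 0.05 against 501 without the block. Depth limits Npas2 most, at about 31 to 167 reads per library.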
